A study of Homo sapiens with 4 samples.

Results

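The genes described here are 10 genes named for their use in neurons and neuroendocrine cells, UCHL1, KIF1A, GAL, CALCA, STMN2, SCG3, NEFL, NEFM, INA and CKB, out of 20501 genes that the array measured under a RefSeq symbol. They were chosen from measured values of these same arrays, among them the difference between the peptides at 48 h, so that difference is a description and no test was made of it. All 10 were found, at 12 probes: 9 genes have 1 probe each and CALCA has 3. MCF-10A is an established line from non-cancerous human breast epithelium, and each array is labelled as RNA of these cells after 10 µM of a peptide labelled stapled-peptide, for 24 h or 48 h, or of a peptide labelled non-specific stapled-peptide, for 24 h or 48 h. For the latter, the treatment field also says control. Neither label is tied to stERAP-2 or stERAP-5, the names the study uses, so values are given by label. There was 1 array for each peptide and time and no replicate, and no array of untreated cells was analysed here, so no test between the groups was possible and differences are given by their size.

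Neurons carry a set of proteins that few other cells make in quantity. NEFL, NEFM and INA are intermediate filament proteins that assemble into the neurofilaments of axons, KIF1A is a kinesin that moves synaptic vesicle precursors and dense-core vesicles along microtubules, and STMN2 is a stathmin that regulates microtubules in growing axons. Neuroendocrine cells, which release peptides from dense-core granules, share part of this set. GAL encodes the peptide galanin, CALCA encodes calcitonin and, by alternative splicing, calcitonin gene-related peptide (CGRP), and SCG3 is a granin of the granule membrane. UCHL1 is a ubiquitin hydrolase abundant in neurons and neuroendocrine cells, and CKB is the brain form of creatine kinase, which regenerates ATP from phosphocreatine. In many non-neuronal cells, genes of this kind are held off by the repressor REST, which binds a DNA element called RE1.

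The array of the non-specific peptide at 48 h, called the non-specific 48 h array below, stood apart from the rest. Over probes well above background on either array, its log2 signals correlated with those of the other 3 arrays at 0.799 to 0.807, against 0.976 to 0.978 among those 3 (Pearson's r across probes, which share the array and are not independent replicates). All 4 arrays lay on 1 slide and came from 1 scan, and 62.5 to 65.7% of their spots were well above background. Markers of basal mammary epithelium, the kind of cell that MCF-10A represents, went with this split. All 12 were well above background on the other 3 arrays, with a log2 of the summed signal of 16.86 to 16.87, and on the non-specific 48 h array 11 of 12 were and the sum was 9.64, with KRT5 at 5.02 against 14.54 to 14.65 and ITGB4 at 7.10 against 15.19 to 15.29. These defining markers thus went against the cell line label of this array, and whether it held RNA of MCF-10A cells was not tested. Every 48 h value below carries this doubt. Of markers of embryonic kidney, 6 or 7 of 13 were well above background on the other 3 arrays, with a summed level of 10.31 to 10.37, and 11 of 13 on this one, with 13.99. At 48 h, 12 of these had a difference, 6 of them a bound, and the list was drawn up with earlier results of these data known. Of the 12, 8 were over 2-fold higher on this array, 0 lower and 4 within 2-fold. Over all genes, 21.2% were higher and 19.8% lower. Well above background on this array alone were 5 of the 12, which could enter only with a positive difference. The count is therefore not a result about these markers. Among the 4 within 2-fold were PAX8 (−0.95) and PAX2 at its gene probe (−0.59, a bound, with at least 3.89 at its other probe). LIN28B, an RNA-binding protein of embryonic cells, was at 12.86 there against 1.69 to 1.72, and HOXA9 was at 12.06 against 9.18 to 9.27 at one probe and at 9.36 against 9.21 to 9.32 at its other, while OSR1 was not well above background on any array, which is called dim below. The summed levels of luminal epithelial markers (KRT18, KRT8), glial markers (MBP, AQP4) and fibroblast markers (DCN, COL1A1) were lower on this array, at 12.62, 7.68 and 7.56, against 14.89 to 14.97, 9.33 to 9.42 and 14.85 to 14.97 on the others, but such sums are carried by the brightest genes. Over 2-fold lower were 2 of 6 luminal markers (KRT8 and KRT18), 1 of 4 glial (MBP) and 3 of 5 fibroblast markers (DCN, PDGFRA and PDGFRB), 1 glial marker was over 2-fold higher (OLIG2, by at least 1.58), and the rest, with KRT19 at 0.94, EPCAM at 0.88 and COL1A1 at 0.13, were within 2-fold. Of these lists, ELF5, S100B, SOX10, COL1A2 and COL3A1 were among the genes dim on all 4 arrays. Every value below that uses the non-specific 48 h array rests on this 1 array, the part of these marker differences in those values was not tested, and the comparisons that leave it out are given beside them. In bulk RNA, a change in how many cells of a kind were present and a change in RNA per cell cannot be told apart.

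On that array, 9 of the 10 genes were well above background at 1 or more probes, against 2, CKB and CALCA, on each of the other 3. At each gene's probe with the highest mean signal, 7 of the 10 were so on that array alone. Among all 20501 genes, 1108 (5.4%) were so. The 10 were picked from values of these arrays, so this gap is not a result about them. Levels are log2 of the spot signal after quantile normalization, and a dim signal is one without the scanner software's mark for well above background. At 48 h, 8 of the 9 genes with a difference had over 2-fold more signal with non-specific stapled-peptide than with stapled-peptide, and 5 had over 100-fold more (UCHL1, KIF1A, GAL, NEFM and NEFL). Over all 17112 genes with a difference, 21.2% were over 2-fold higher, 19.8% over 2-fold lower and 0.24% over 100-fold higher. The median was 7.26 on the log2 scale for the 9 genes and 0.03 for all genes. For 7 of the 9 the stapled-peptide signal was dim, and the difference is then a lower bound, taken against the lowest signal well above background on that array, 3.89. Since the genes were picked for this difference, the gap from the background share is not a result about them.

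**Figure D1:**
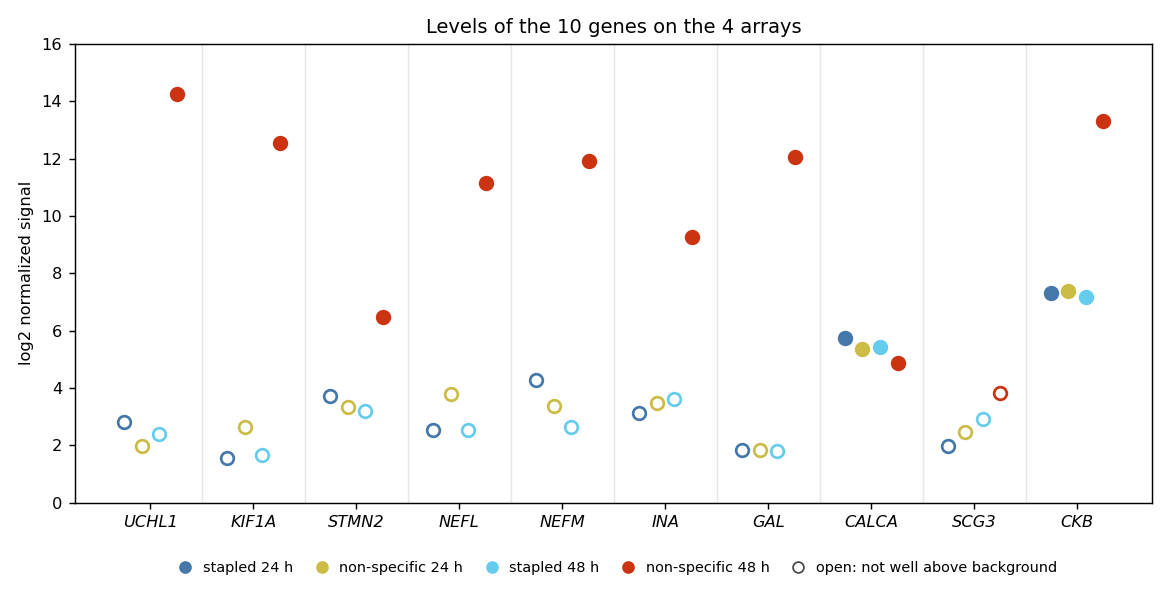
Levels of the 10 genes, as log2 normalized signal at each gene's probe with the highest mean signal, on the 4 arrays (1 point each, no replicates). Filled points were well above background and open points were dim. For UCHL1, KIF1A, STMN2, NEFL, NEFM, INA and GAL only the non-specific 48 h array is filled, CKB is filled on all 4 arrays, and SCG3 on none.

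Among the neurofilament genes, NEFM at 24 h had a level of 4.28 with stapled-peptide and of 3.36 with the non-specific peptide, and at 48 h of 2.65 and 11.93. The first 3 of these were dim, and the 48 h difference was at least 8.05, or at least 264-fold. NEFL, in the same order of arrays, was at 2.53, 3.78, 2.55 and 11.15, again with only the last well above background, and differed by at least 7.26 at 48 h. INA, the partner of these chains in the filaments of the central nervous system, was at 3.14, 3.49, 3.62 and 9.25, and differed by at least 5.36, or at least 41.2-fold. In all 3 genes the non-specific 48 h array was the high one, and the dim signals of the other 3 arrays carry no order. NEFM and NEFL are next to each other in the RefSeq annotation. The scanner software gave the bright spots their own error before normalization, 3960 ± 396 for NEFM, 2330 ± 233 for NEFL and 656 ± 65.6 for INA, which covers the spot and not the spread between cultures.

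The promoter of INA, from RefSeq GRCh38.p14, is shown as the neurofilament gene of this set that the promoter table lists. The stretch is the 100 bases before the transcription start, chr10:103277038-103277137 on the plus strand, and the capitals mark GC boxes, here read on the opposite strand.
INA: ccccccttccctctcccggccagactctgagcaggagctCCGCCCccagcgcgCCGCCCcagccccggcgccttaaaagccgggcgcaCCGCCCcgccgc

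KIF1A, the vesicle motor, was at 1.54, 2.64, 1.65 and 12.55, and its difference at 48 h was at least 8.67 (406-fold). The single high array was again the non-specific 48 h array. STMN2 had the smallest bound among the genes that were higher. Its levels were 3.71, 3.35, 3.21 and 6.46, and the difference was at least 2.58, or at least 5.97-fold. One promoter of KIF1A holds a cyclic AMP response element (CRE), and it is printed because CREs are a known feature of genes used in neurons and endocrine cells. The element lies at −197 to −190 from the last of 3 listed starts, in chr2:240820398-240820427 on the minus strand of GRCh38.p14, with the CRE in capitals.
KIF1A: ggtgtcagcggTGACGTCAcagcccggccc

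UCHL1, the ubiquitin hydrolase, had the highest bound of the 10. It was dim at 2.81 on the stapled-peptide array and 1.96 on the non-specific one at 24 h and at 2.38 with stapled-peptide at 48 h, and it was at 14.25 on the non-specific 48 h array. The difference was at least 10.36, or at least 1318-fold, and the bright spot read 18259 ± 1826 (the software's error) before normalization. The 100 bases before its start, chr4:41256828-41256927 on the plus strand of GRCh38.p14, are given with a TATA box on the opposite strand (at −29 to −24 from the start) and a GC box in capitals.
UCHL1: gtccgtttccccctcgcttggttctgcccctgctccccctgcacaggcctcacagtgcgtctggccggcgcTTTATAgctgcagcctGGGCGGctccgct

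CKB was the only one of the genes over 2-fold higher that was well above background on every array, so its difference is measured on both sides. It was at 7.33 and 7.37 at 24 h and at 7.17 and 13.30 at 48 h. The difference at 48 h was 6.13, or 69.9-fold. Without the array that stood apart, the 3 levels of CKB lay within 0.20 of each other, with a peptide difference of 0.04 at 24 h and a change of −0.16 from 24 h to 48 h with stapled-peptide. Both fall inside the central 95% of all genes in those comparisons, −0.65 to 0.64 and −0.67 to 0.62. The 100 bases before the CKB start, chr14:103522831-103522930 on the minus strand of GRCh38.p14, hold a TATA box, 2 CCAAT boxes and a GC box, in capitals, one CCAAT box running into the GC box.
CKB: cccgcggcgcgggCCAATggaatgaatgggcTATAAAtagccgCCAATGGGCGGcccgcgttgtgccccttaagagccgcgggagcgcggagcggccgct

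GAL, the galanin precursor, was flat and dim at 1.84, 1.82 and 1.81 and stood at 12.04 on the non-specific 48 h array, a difference of at least 8.15 (285-fold). Galanin acts on the receptors GALR1, GALR2 and GALR3. GALR1 and GALR2 were dim on all 4 arrays. GALR3 was at 12.14, 12.07, 12.08 and 11.72, a difference of −0.36 at 48 h, within 2-fold.

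The probes of CALCA differed in direction. Probe A_33_P3318771, which the annotation of the array assigns to transcript NM_001033952 and which has the highest mean signal of the 3, was well above background on all arrays, at 5.74, 5.35, 5.43 and 4.86. Its difference at 48 h was −0.57, within 2-fold. Probe A_23_P301846, assigned to the same transcript, was at 4.62, 4.54 and 4.87 and dim at 3.89, a difference of −0.97 that is a bound. Probe A_24_P198178, assigned to NM_001033953, was dim at 1.57, 1.59 and 1.59 and stood at 10.42 on the non-specific 48 h array, a difference of at least 6.53 (92.6-fold). The differences of the 3 probes thus spanned 7.51 on the log2 scale with bounds for the dim signals, and 9.80 without, the 2 probes of one transcript having the same sign and the probe of the other transcript the opposite one. Neither probe sequences nor exon positions were used here, so which splice product each probe reads, calcitonin or CGRP, was not tested. By the rule used for every gene, CALCA counts at the first probe as within 2-fold, and at the third it would be over 2-fold higher.

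**Figure D2:**
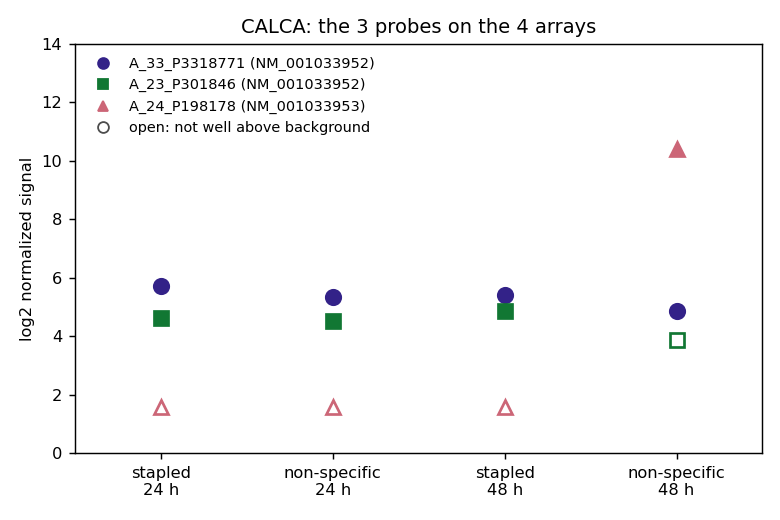
Log2 normalized signal of the 3 CALCA probes on the 4 arrays, 1 point per array, with the transcript that the array annotation gives for each probe. The NM_001033953 probe (triangles) is dim on 3 arrays and at 10.42 on the non-specific 48 h array, where the NM_001033952 probes (circles and squares) are at 4.86 and 3.89. Levels of different probes are not comparable with each other.

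The 100 bases before the CALCA start, chr11:14972352-14972451 on the minus strand of GRCh38.p14, are shown with a GC box and a CCAAT box, both on the opposite strand and adjoining, in capitals.
CALCA: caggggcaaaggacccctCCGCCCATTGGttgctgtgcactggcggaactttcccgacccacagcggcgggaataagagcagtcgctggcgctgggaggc

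SCG3 went against its place among these genes. Its probe was dim on all 4 arrays, at 1.97, 2.48, 2.92 and 3.84, and no fold can be given. The spot on the non-specific 48 h array read 12.9 ± 3.47 before normalization, against 6.46 ± 3.53 with stapled-peptide at the same time. A level below the background mark is not evidence that the gene is silent. The first bases transcribed from SCG3 hold matches to both half-sites of the RE1 element, and they are shown because REST is the known regulator of such genes. The search took any gap of 1 to 10 bases, and whether this spacing makes a working element was not tested. These half-sites, in capitals, run from base 9 to 17 and from base 26 to 34 after the start, at chr15:51681511-51681536 on the plus strand of GRCh38.p14.
SCG3: TTCAGCACCcacagggcGGACAGCGC

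Motifs were sought on both strands in 300 bases of each promoter, 250 before and 50 after the start, in the 8 RefSeq entries of 6 of the genes and in all 35116 entries. GAL, STMN2, NEFL and NEFM have no entry. The left RE1 half-site, TTCAGCACC, was in 0.376% of all entries and the right one, GGACAGCGC, in 0.581%. Both on the same strand, at most 10 bases apart, were in 5 entries (0.0142%), one of them that of SCG3. The CRE, TGACGTCA, was in 1.85% of all entries and in 1 of the 8. The E-box CAGCTG was in 3 of 8 against 17.9% of all, the CCAAT box (CCAAT) in 3 of 8 against 34.6%, the TATA box (TATAAA) in 2 of 8 against 11.5% and the GC box (GGGCGG) in 7 of 8 against 45.0%. In SCG3 the GC box overlaps the right half-site, from base 22 to 27. The GC content of the 8 entries, 3 of them starts of KIF1A, ran from 51.7 to 81.0%, with a median of 58.7% over all entries. All but the first KIF1A start (51.7%), which has no GC box, lay above that median. The part of GC content in the GC box share was not tested. These matches describe letters in a window, and no binding was measured.

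At 24 h the peptides could be compared for 2 of the genes, because the other 8 were dim on both arrays. CKB differed by 0.04 and CALCA, at the probe that stands for the gene, by −0.39, so 0 of 2 passed 2-fold in either direction, where 0.838% of 16228 genes were over 2-fold higher and 1.04% over 2-fold lower with non-specific stapled-peptide. From 24 h to 48 h with stapled-peptide, CKB differed by −0.16 and CALCA by −0.31, again 0 of 2 past 2-fold, against 0.923% of 16138 genes higher and 1.13% lower. With non-specific stapled-peptide, the change from 24 h to 48 h ran from −0.49 for CALCA to at least 10.47 for UCHL1, with a median of 7.37. Over 2-fold higher were 8 of 9 genes, against 21.3% of 17297 genes, with 20.1% lower, and 5 were over 100-fold higher, against 0.243%. This change and the 48 h difference share the non-specific 48 h array and are not independent.

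**Figure D3:**
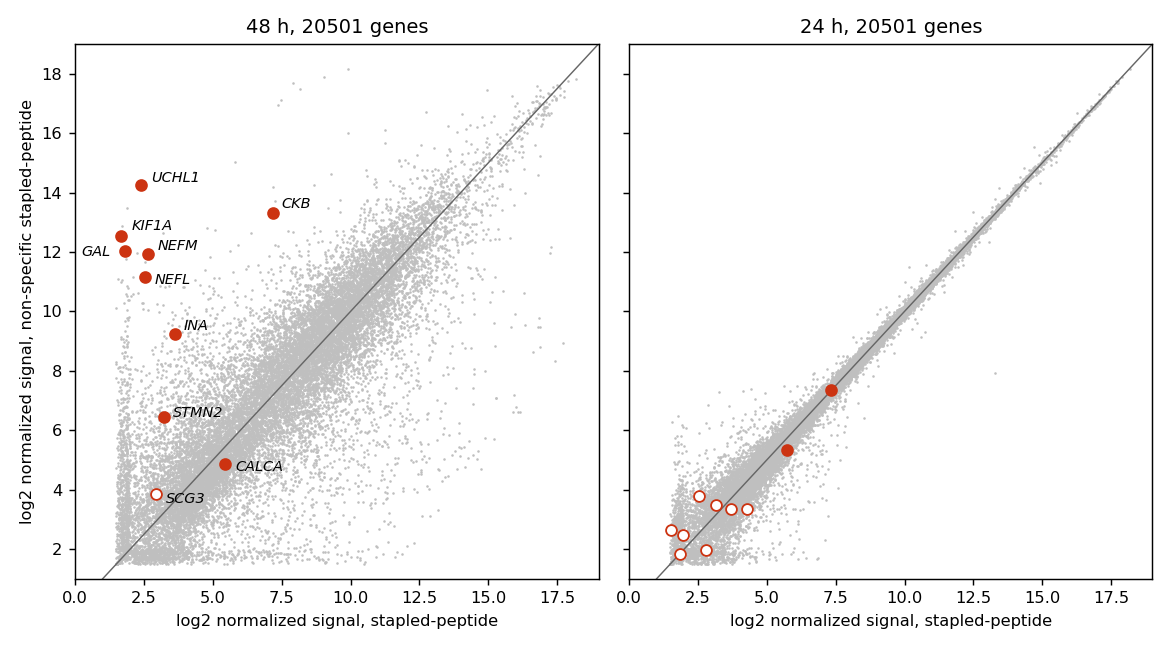
Log2 normalized signal with non-specific stapled-peptide against that with stapled-peptide for 20501 genes (grey) at 48 h (left) and 24 h (right), with the 10 genes in red, open where dim on both arrays, and a line of equal signal. At 24 h the red points of CKB and CALCA lie on or near the line and the others are dim, and at 48 h all but CALCA and SCG3 lie far above it.

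The 10 genes did not share one profile in detail. Each gene's 4 levels were centred on their mean, and the distance of this profile from the average profile of the 10 was smallest for CKB (0.427) and INA (0.732) and largest for CALCA (6.20) and UCHL1 (4.69), CALCA being level and UCHL1 having the larger step. Outside all lists used here, the genes with the profile closest to that average over the 4 arrays were GFI1 (distance 0.102), ZYG11A (0.110), CTH (0.146), ZSWIM5 (0.161) and SYK (0.163). GFI1, a zinc finger repressor, was dim at 1.91, 2.10 and 1.89 and stood at 8.50 on the non-specific 48 h array. CTH, the enzyme that makes cysteine from cystathionine, was at 7.32, 7.32, 7.26 and 13.70. Dim signals entered the profiles as read, without bounds, so these distances and their order rest partly on signals that carry no order. Of all 20501 genes, 1108 (5.40%) were well above background on the non-specific 48 h array and on no other.

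Related genes outside the 10 were taken from 11 lists. Of their 140 genes, 137 were on the array under a symbol (CALCB, PENK and CKMT1B were not) and 111 had a difference at 48 h. Among these, 38 (34.2%) were over 2-fold higher with non-specific stapled-peptide and 18 (16.2%) over 2-fold lower, with a median of 0.28, beside 21.2%, 19.8% and 0.03 for all genes. Of the 111 differences, 38 are bounds, some in each direction. A gene dim with stapled-peptide at 48 h could enter only through the non-specific 48 h array, and only with a positive difference. These shares, and the 48 h counts of the single lists below, are therefore not a result about the lists. At 24 h 0 of 79 passed 2-fold. With stapled-peptide from 24 h to 48 h, 2 of 84 (2.38%) were over 2-fold higher and 0 lower, beside 0.923% and 1.13% of all genes. Those 2 were CALCRL, the receptor chain of CGRP, and PTPRN, a protein of granule membranes. CALCRL was higher by at least 2.55 at its brightest probe, and PTPRN by at least 1.28. Another CALCRL probe changed by at least 0.39, a bound short of 2-fold, and its remaining probe was dim on all 4 arrays. With another background correction, given below, 0 of the list genes were over 2-fold higher in this comparison.

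**Figure D4:**
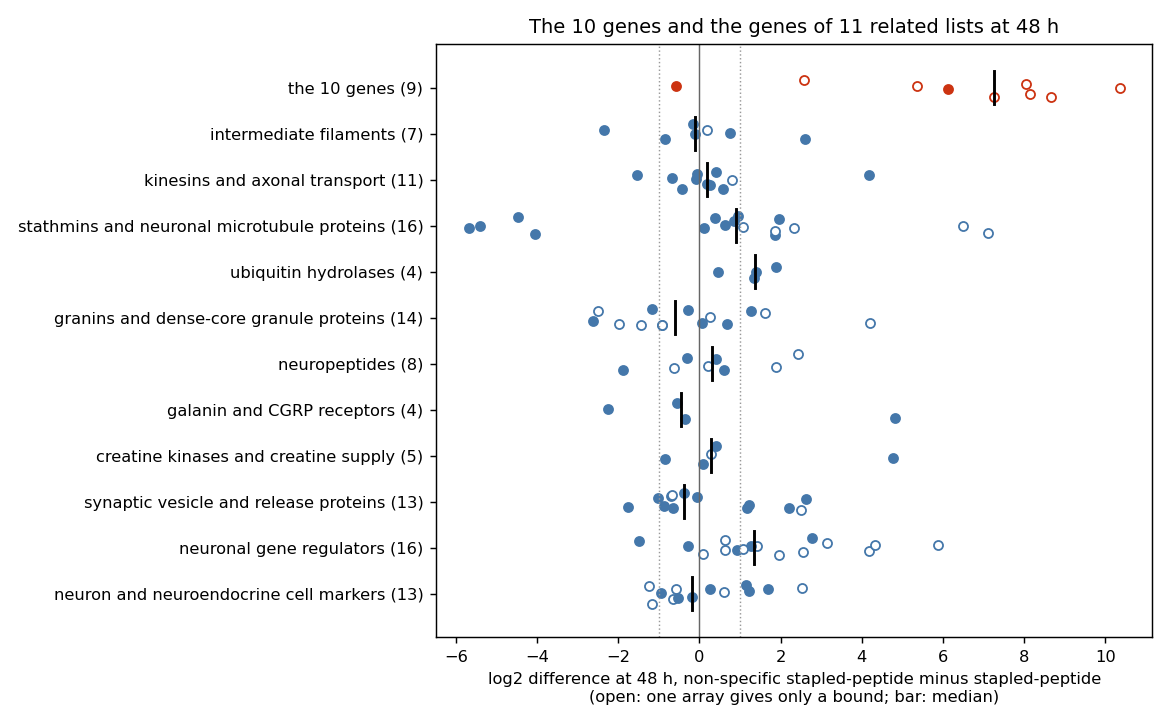
Log2 difference at 48 h, non-specific stapled-peptide minus stapled-peptide, for the 10 genes (red) and for the genes of 11 related lists (blue), 1 point per gene with the number of genes in parentheses. Open points are bounds, black bars are medians and dotted lines mark 2-fold. The list medians run from −0.59 to 1.37, against 7.26 for the 10 genes, which were picked for this difference.

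The cytoskeletal relatives differed in both directions. Of 7 other intermediate filament genes, 1 was over 2-fold higher and 1 lower: PRPH, the peripherin of peripheral neurons, was at 4.70, 4.65, 4.65 and 7.26 (2.60), and VIM, the vimentin of mesenchymal cells, at 16.28, 16.20, 16.32 and 13.97 (−2.35). DES, the muscle desmin, differed by −0.84. NEFH, the heavy neurofilament chain, had a difference of −0.15 at its brighter probe and of at least 1.87 at its other one, where only the non-specific 48 h array was well above background. Of 11 kinesin and transport genes with a difference, the neuronal kinesin heavy chain KIF5C was higher by 4.17, from 4.57 to 8.74, KIF3B was lower by 1.55 (a difference of −1.55), and the other 9 were within 2-fold, DYNC1I1 among them at 0.80. KIF5A was dim on all 4 arrays.

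Stathmins and microtubule proteins had 7 of 16 genes over 2-fold higher and 4 lower, with a median of 0.90. DPYSL5, a collapsin response mediator of developing neurons, was dim at 1.67, 1.95 and 1.68 and at 10.98 (at least 7.10), and was the gene of the 11 lists that passed 100-fold. Another DPYSL5 probe differed by at least 4.54 (23.3-fold), and its remaining probe was dim on all 4 arrays. With another background correction, given below, DPYSL5 differed by 4.92, short of 100-fold. TUBB2B, a tubulin of migrating neurons, was higher by at least 6.49. On the lower side were DPYSL3 (−5.69, from 11.15 to 5.46), MAP2, a microtubule protein of dendrites (−5.41, from 9.48 to 4.07), DPYSL2 (−4.46) and TUBB3, the tubulin often used as a neuronal marker (−4.05, from 11.22 to 7.17). These 4 had been at the high level on all 3 other arrays. The neuronal names on this list therefore included genes well above background in the cells of the 3 arrays with basal epithelial markers. STMN4 and GAP43 were dim on all 4 arrays.

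The granule and peptide genes also differed in both directions. Of 14 granin and dense-core granule genes, 3 were over 2-fold higher and 5 lower, with a median of −0.59. CHGA, the chromogranin used as a neuroendocrine marker, was dim at 1.55, 1.57 and 1.57 and at 8.08 (at least 4.20), SCG5, a chaperone of prohormone convertase 2, was at 7.20, 7.32, 7.05 and 4.42 (−2.63), and PCSK1, a prohormone convertase, went from 6.07 to dim (−2.50, a bound). PCSK2 and SLC18A1 were dim on all 4 arrays. Of 8 neuropeptide genes with a difference, NPY (at least 2.42) and TAC1 (at least 1.88) were over 2-fold higher and ADM, adrenomedullin, was lower (−1.88). CCK, PDYN, GRP, ADCYAP1 and CARTPT were dim on all 4 arrays.

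CGRP acts on the receptor CALCRL together with the accessory protein RAMP1. RAMP1 was at 7.47, 7.51, 7.37 and 12.20 at one probe and at 5.65, 5.79, 5.46 and 10.03 at the other, differences of 4.82 and 4.57 at 48 h. CALCRL was dim at 24 h, at 3.44 and 3.95, and at 6.49 and 4.24 at 48 h, a difference of −2.26. Of its other 2 probes, one differed by −0.38 and one was dim on all 4 arrays. CALCR, the calcitonin receptor, differed by −0.56. RAMP2 and RAMP3 were dim on all 4 arrays.

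Relatives of UCHL1 and CKB were few. Of 4 ubiquitin hydrolase genes, 3 were over 2-fold higher, with a median of 1.37: UCHL3, the closest homologue, was at 10.55, 10.64, 10.59 and 12.47 (1.88), USP14 differed by 1.40 and UCHL5 by 1.35, both of these being hydrolases of the proteasome. BAP1 differed by 0.46. Of 5 genes of creatine kinases and creatine supply with a difference, 1 was over 2-fold higher, the mitochondrial creatine kinase CKMT1A, by 4.77 and 4.47 at its probes. CKMT1A has a near-identical copy, CKMT1B, and the array cannot be taken to tell them apart. GATM (−0.86) and GAMT (0.42), the enzymes of creatine synthesis, were within 2-fold.

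Genes of synaptic vesicles and release had 5 of 13 over 2-fold higher and 2 lower, with a median of −0.37. CPLX1, a complexin, differed by 2.63, SYN2, a synapsin, by at least 2.50 and SYP, synaptophysin, by 2.21, from 4.16 to 6.37, while SYN1 was dim on all 4 arrays. Among 16 genes that regulate neuronal expression, 10 were over 2-fold higher and 1 lower, with a median of 1.34. Over all genes, 21.2% were higher and 19.8% lower. For 11 of the 16 the difference is a bound, as they were well above background on the non-specific 48 h array alone. These entered the count through the array where they were high, so the count is not a result about regulators. The 5 well above background on both 48 h arrays were RCOR2 (2.77), SOX4 (1.26), ISL1 (0.92), RCOR1 (−0.27) and REST. REST was the lower one, at 7.84, 7.80, 7.87 and 6.39, a difference of −1.48. With another background correction, given below, it was −0.93 and within 2-fold. Among the higher ones were the transcription factor POU3F2 (at least 5.89), the splicing factor NOVA1 (at least 4.33) and SOX2 (at least 4.19), each dim on the other 3 arrays. At its other probe NOVA1 differed by at least 2.10. With the other background correction, NOVA1 differed by 2.18 and SOX2 by 2.15. POU4F1, a factor of sensory neurons, differed by at least 2.54 at its brighter probe and by at least 6.87 at the other. NEUROD1, PHOX2A, SOX11 and ELAVL3 were among the genes dim on all 4 arrays. Of 13 further neuron and neuroendocrine markers, 4 were over 2-fold higher and 2 lower, with a median of −0.18. RBFOX3, the nuclear antigen of mature neurons, differed by at least 2.52, ENO2, neuron-specific enolase, by 1.70 and SLC17A6, a vesicular glutamate transporter, by −1.24, the last a bound from the stapled-peptide array at 48 h alone. For NCAM1 the probes disagreed, from −1.17 to at least 5.08. DBH, CNTN2 and GRIN1 were dim on all 4 arrays. The label of the 10 genes thus names what they are known for, and of the 16 markers in the last list 9 were well above background on the non-specific 48 h array, against 8, 9 and 11 on the others.

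**Figure D5:**
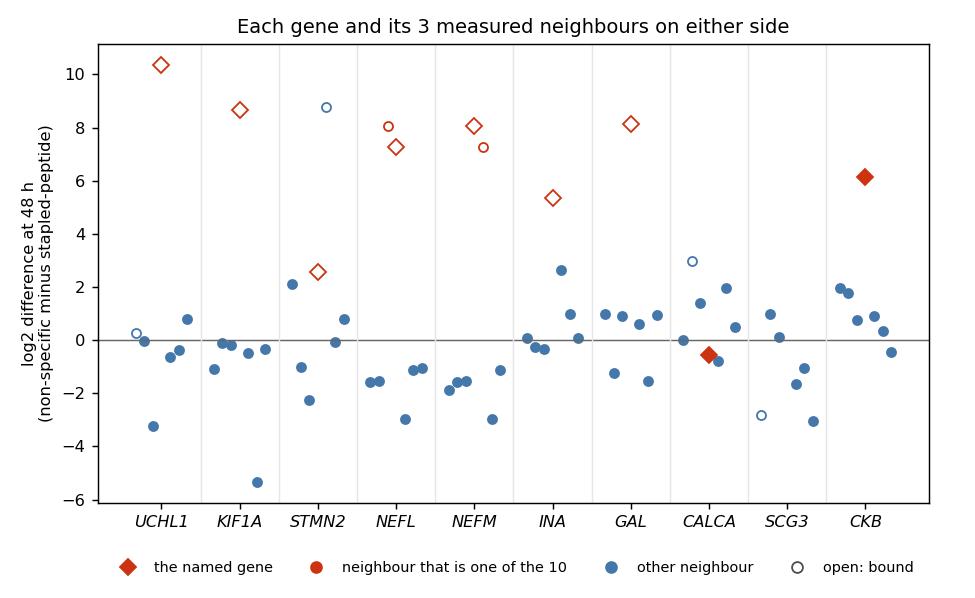
Log2 difference at 48 h of each of the 10 genes (diamonds) and of the 3 nearest genes on either side that have one (circles, in annotation order), with open symbols for bounds. SCG3 has no difference of its own, NEFL and NEFM are neighbours of each other, and the blue circle at 8.76 beside STMN2 is HEY1.

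The genes next to the 10 differed in both directions. With 3 genes with a difference taken on either side in RefSeq order, 54 genes outside the 10 were compared, of which 8 (14.8%) were over 2-fold higher, 17 (31.5%) over 2-fold lower and 29 within 2-fold, with a median of −0.08, beside 21.2% higher and 19.8% lower over all genes. Next to the 8 genes that were over 2-fold higher themselves, 5 of 42 (11.9%) were higher and 13 (31.0%) lower. The gene past 100-fold among them was HEY1, a transcriptional repressor downstream of Notch, which lies next to STMN2. It was dim at 3.65, 3.87 and 3.19 and at 12.64 on the non-specific 48 h array, a difference of at least 8.76, against at least 2.58 for STMN2. Beside KIF1A, SNED1 was at 12.02, 12.03, 12.05 and 6.71, a difference of −5.33, opposite in sign to that of KIF1A. APBB2, beside UCHL1, differed by −3.23, and PCGF6, beside INA, by 2.65.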

How the data were processed

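RNA, given in the labels as that of MCF-10A cells, was labelled with Cy3 and hybridized to 4 single-colour Agilent arrays. The 48 h array of the non-specific peptide goes against this label in its basal markers. The deposited intensity values are the authors' background-subtracted spot signals on a linear scale, made with Agilent Feature Extraction (10.7.1.1 per the file headers, 9.5 per the submitters' processing notes) and not normalized between arrays. The genes and lists were chosen with earlier results of these data known.

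Control spots and spots marked as outliers were left out, the log2 signals of all spots with one probe were averaged (signals held at 1 or more) and quantile-normalized over the 4 arrays, as in the study's methods, which leaves differences relative to the bulk of all probes. A probe dim on 1 of 2 arrays was raised to that array's lowest well-above-background level and gives a bound. A probe dim on both has no difference. None of the 48 spots of the 10 genes was marked as an outlier. Symbols came from RefSeq accessions (28168 of 50590 probes), and a gene with several probes is represented by the one of highest mean level. Array positions follow an older genome build, so RefSeq GRCh38.p14 gave only gene order and promoter sequence.

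Named were all probes of the 10 genes, the 3 genes of each list with the largest difference at 48 h that were well above background on an array at that time, with REST, the 2 marker genes of each cell type with the highest level and those dim throughout, and the 5 genes closest in profile. Members of small receptor and enzyme lists, genes whose probes disagree and neighbours with large differences were added after their values were seen. Some genes of the lists are not reported here by name. No test was possible, since each peptide and time has 1 array, and this number of arrays limits all precision. The 8 alternatives tried were no normalization, scaling to the 75th percentile, normexp with an offset of 50 on the median pixel signal (limma 3.58.1, R 4.3.3), no bound, probes above background on both arrays alone, outlier-marked spots kept, averaging a gene's probes, and the combined table of the series. One was added after the data were seen, normalization without the array that stands apart. Steps were checked on changes put into bright probes in noisy copies of a real array. That check did not cover probes dim before the change, or changes in as many genes as at 48 h. Python 3.11.15, numpy 2.4.6, pandas 2.3.3 and matplotlib 3.10.9 were used.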

Additional observations from a re-analysis of the deposited data

How the results depend on the processing

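No paired analysis was possible because each peptide and time has 1 array and the labels carry no replicate numbers. A value counted as moved when it shifted by more than 0.34, the SD over genes of the stapled-peptide difference between 48 h and 24 h, and a count when it shifted by over 1.5 times. With normexp, which lifts low signals, the median of the 10 genes at 48 h was 5.58 and that of their change with non-specific stapled-peptide 5.54, with 1 gene over 100-fold in each, the CALCA probes spanned 4.82, and the list genes had 20 higher and 10 lower at 48 h, 21 higher and 10 lower over time with non-specific stapled-peptide, and 0 higher over time with stapled-peptide. When a probe had to be above background on both arrays, which by construction leaves CKB and CALCA, the medians were 2.78 and 2.72 with 1 gene over 2-fold and 0 over 100-fold in each, and the list genes had 19 higher at 48 h, 18 higher over time with non-specific stapled-peptide and 0 with stapled-peptide. Without bounds the 48 h median was 8.60, the CALCA probes spanned 9.80, and 1 list gene was over 2-fold higher at 24 h. Without normalization, 1 list gene was higher and 1 lower over time with stapled-peptide. Of 68 values of single genes, 51 moved with normexp and 15 without normalization. Named genes past 2-fold at 48 h that came within it with normexp included REST (−0.93), CALCRL (−0.66), PCSK1 (−0.79) and SLC17A6 (−0.25). So did TAC1 (0.68), SYN2 (0.97), SYP (0.86), RBFOX3 (0.99), USP14 (0.76) and NCAM1 (−0.19). The mean over a gene's probes turned NCAM1 from −1.17 to 1.96, and it brought the number of the 10 genes over 2-fold higher from 8 to 9, as CALCA, at −0.57 by its brightest probe, was then at 1.66. Scaling to the 75th percentile, outlier-marked spots kept and the combined table moved none of the medians or counts of the 10 genes or of the list genes. The added normalization without the array that stands apart can give only the 24 h comparison and the change with stapled-peptide, and moved none of these. Dim signals on 3 arrays limit the size, not the sign, of 7 of the differences.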
